A study of Mus musculus with 2 samples.

Results

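LAG3, TIM-3 and TIGIT are inhibitory receptors of T and NK cells that are studied next to PD-1. The 10 genes described here, of 32589 in the deposited matrices, encode these receptors and the proteins of their axes: *Lag3*, *Havcr2* (TIM-3), *Tigit*, *Cd96*, *Cd226* (DNAM-1), *Lgals9* (galectin-9), *Pvr* (CD155), *Nectin2* (CD112), *Ceacam1* and *Vsir* (VISTA). They were taken by gene symbol, and all 10 were present. Single-cell RNA-Seq was performed on dissociated livers of mice bearing cholangiocarcinoma (CCA), which had been induced by hydrodynamic tail vein injection (HDTVI) of activated Notch (NICD) and myristoylated AKT. Both groups were shYT, that is, doxycycline turned on shRNAs to *Yap1* and *Wwtr1* (TAZ) throughout the body, so that the knockdown itself was not compared. Per the study's methods, doxycycline was started on day 25 after injection and tumors were analyzed on day 33. Mice received PBS or the anti-PD-1 antibody RMP1-14, given per the study's scheme on days 26, 29 and 32. Each group was 1 library, the labels do not say how many animals it held or which shYT line was used (the study's description gives 4 per group for its T cell plots, without saying how these relate to the library), and cells could not be assigned to animals. The values below therefore compare a pair of libraries. No test between the treatments was possible, and all intervals are 95% intervals that cover counting error only.

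LAG3 resembles CD4 and binds MHC class II, and fibrinogen-like protein 1, LSECtin (*Clec4g*) and galectin-3 are further ligands. TIM-3 marks dysfunctional CD8+ T cells and is also expressed by dendritic cells and macrophages; galectin-9, CEACAM1, HMGB1 and phosphatidylserine have been described as its ligands. TIGIT, CD96 and CD226 compete for CD155 and, in part, CD112: TIGIT and CD96 restrain T and NK cells, whereas CD226 activates them. VISTA is a B7 family protein of myeloid and T cells that restrains T cell responses.

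The libraries held 19397 (shYT with PBS) and 19451 (shYT with anti-PD-1) barcodes with 121713441 and 100807037 unique molecular identifiers (UMIs), of which 15531 and 16360 cells with 500 to 5000 genes and at most 10% mitochondrial UMIs were kept. The kept cells held 79090376 and 77674743 of the UMIs. Each kept cell was put into a class by its marker genes, and classes are written as "-like" because no deposited annotation was used. Of 21 classes, 16 had at least 100 cells in both libraries; a further 901 and 1084 cells carried markers of more than 1 lineage and 899 and 1031 cells passed no gate. Of the defining markers, *Cd3e* was at 597 and 649 CPM (UMIs of the gene scaled to the UMIs of its class) in CD8 T-like cells, *Csf1r* at 1261 and 1018 CPM in macrophage-like cells and *Epcam* at 517 and 535 CPM in tumor or biliary-like cells. Hepatocyte-like cells carried tumor or biliary markers as well, at a sum of 2598 and 2965 CPM against 8702 and 6826 CPM in tumor or biliary-like cells (their own 7 markers summed to 8857 and 8034 CPM), so the levels given for this class are not those of hepatocytes alone. The libraries also differed in sex-linked transcripts: *Xist* had 18452 UMIs with PBS and 11 with anti-PD-1, and 4 Y-linked genes had 3113 and 15323, so sex and treatment cannot be told apart. A list of 14 immediate-early and heat shock genes, which respond to tissue dissociation, had a median log2 ratio (anti-PD-1 over PBS) above 0 in 16 of 16 classes, from 0.26 in neutrophil-like to 2.10 in CAF-like cells. A list of 14 IFN-γ response genes was likewise above 0 in 16 of 16 classes, from 0.34 in CD4 T-like to 2.64 in hepatocyte-like cells. The part of either difference in the values of the 10 genes was not tested. The libraries shared 219 barcode strings, 145 of them among kept cells.

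The upstream sequence of *Lgals9* is shown because, of the 7 genes of the set with a promoter entry, it alone held a match to the ISRE motif described next. Among the 7 of 10 genes with a RefSeq promoter entry (GRCm38.p6), the 250 bases before the start site were searched on both strands for the interferon-stimulated response element (ISRE, a pair of GAAA separated by 2 bases of any kind), the IFN-γ-activated site (GAS, TTCNNNGAA) and the AP-1 site (TGANTCA). The ISRE was found once, in *Lgals9*, the GAS once, in *Cd96*, and the AP-1 site once, in *Havcr2*; *Tigit*, *Nectin2*, *Ceacam1* and *Vsir* held none of these letters in that window. Of 32851 promoters searched the same way, 2.98% held the ISRE, 7.02% the GAS and 6.75% the AP-1 site, and a match is a description of the letters only. The 228 bases upstream of *Lgals9*, chr11:78984947-78985174 on the reverse strand, follow, with the ISRE match in capitals, 55 to 46 bases before the RefSeq start. The printed stretch ends where the GENCODE gene begins, so that the bases between there and the RefSeq start were searched but are not printed.
Lgals9 upstream: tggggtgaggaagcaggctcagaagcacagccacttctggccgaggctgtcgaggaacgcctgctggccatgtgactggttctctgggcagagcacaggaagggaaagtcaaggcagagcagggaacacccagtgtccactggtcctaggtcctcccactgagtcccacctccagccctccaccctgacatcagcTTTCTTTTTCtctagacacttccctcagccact

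Summed over all kept cells, the receptors and ligands lay in different lineages. T and NK-like cells held 76.9% (PBS) and 82.3% (anti-PD-1) of the UMIs of *Tigit*, 75.1% and 76.0% of *Cd96* and 74.6% and 76.8% of *Cd226*. *Havcr2* was mainly a myeloid transcript, with 85.3% and 73.1% of its UMIs in myeloid classes and only 4.69% and 15.3% in T and NK-like cells. *Lag3* was divided between them: T and NK-like cells held 48.3% of its UMIs with PBS and 70.4% with anti-PD-1, and myeloid classes 40.3% and 20.4%. The ligand *Nectin2* had its largest share in epithelial and stromal cells (64.2% and 48.8%), while *Lgals9* (62.6% and 61.0%) and *Vsir* (76.2% and 67.6%) lay mostly in myeloid cells. These shares also move with the number of cells of each class, which differed between the libraries (macrophage-like 2634 and 1198 cells, CD8 T-like 842 and 1213 cells), so the levels below are given as CPM of a class. Shares and levels are those of kept cells only. Over all barcodes *Nectin2* had 6365 and 3206 UMIs, against 2115 and 1218 in kept cells. *Pvr* had 3675 and 3388 against 1717 and 2213, whereas *Vsir* had 15082 and 10750 against 13809 and 9817. Which cell types held the UMIs left out was not examined. All orders and highest or lowest levels below are over the 16 classes with at least 100 cells per library.

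**Figure D1:**
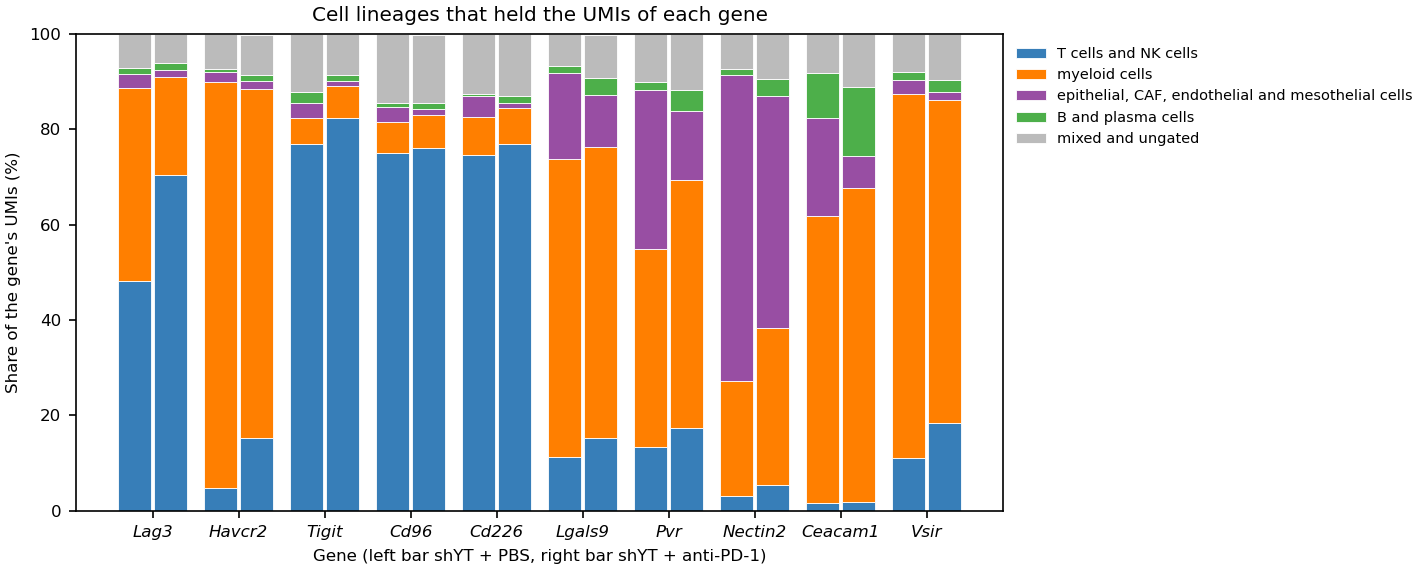
Stacked bars give the percentage of each gene's UMIs held by 5 groups of cells, with shYT + PBS on the left and shYT + anti-PD-1 on the right of each pair. *Tigit*, *Cd96* and *Cd226* lay mainly in T and NK-like cells, *Havcr2*, *Lgals9* and *Vsir* in myeloid cells, and the T and NK share of *Lag3* was 48.3% and 70.4%.

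**Figure D2:**
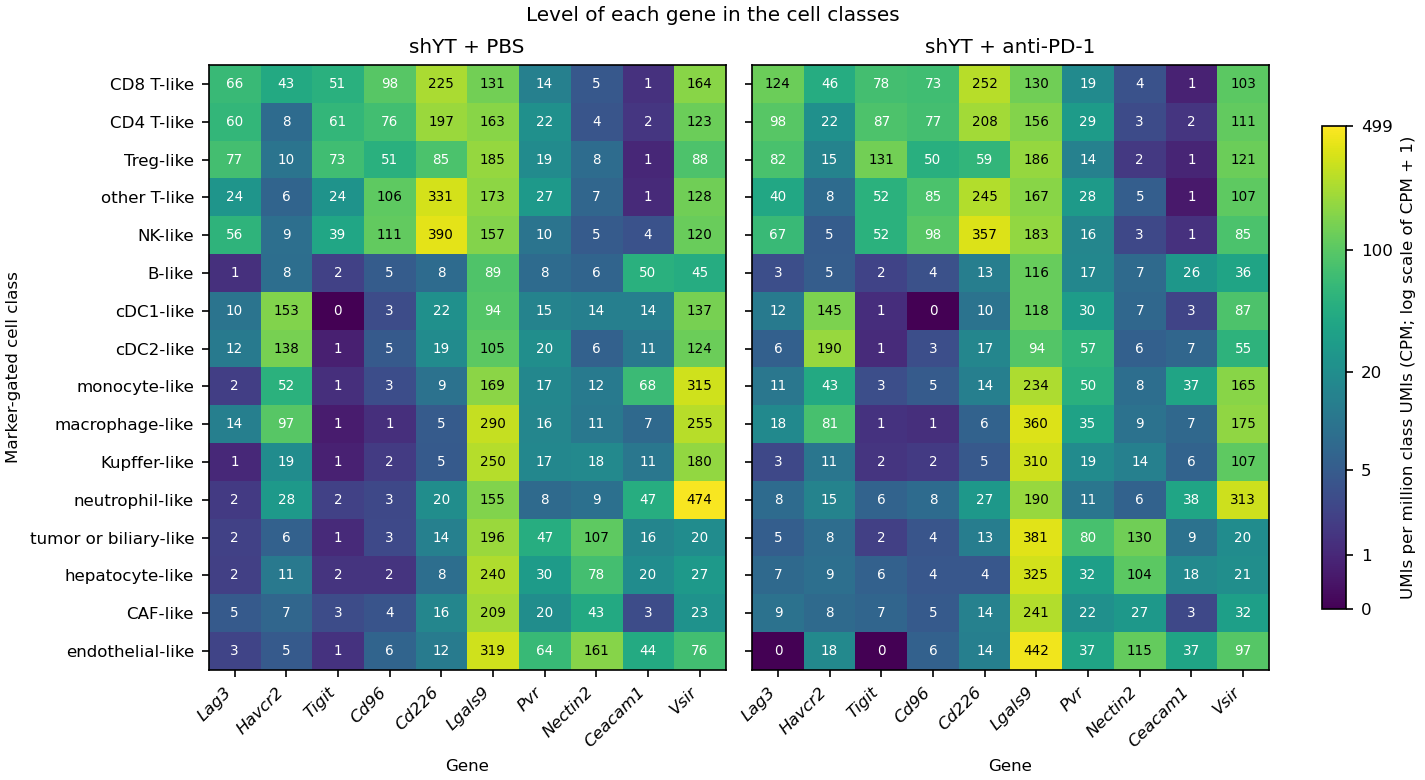
Each cell gives the CPM of a gene (columns) in a marker-gated class (rows), printed and colored on a log scale of CPM + 1, for each library. The PVR receptors occupy the T and NK-like rows, *Havcr2* peaks in both cDC rows, and *Lgals9* and *Vsir* are spread over nearly every class.

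Over the 10 genes and 16 classes, 122 of 160 pairs reached the level needed for a ratio (a mean of 5 CPM and 20 UMIs over both libraries). With 5 CPM added to both sides, 6 of the 122 (4.92%) were at least 2-fold higher with anti-PD-1 and 2 (1.64%) at least 2-fold lower. Over all 160066 measured gene and class pairs, 2.76% were higher and 2.24% lower by this rule. The share differed by class. In T and NK-like classes 1.79% (CD8), 1.91% (CD4), 2.85% (Treg), 1.97% (other T) and 2.03% (NK) of genes were higher and 1.42%, 1.25%, 2.81%, 1.01% and 2.17% lower. In B, cDC1, cDC2, monocyte, macrophage, Kupffer and neutrophil-like cells 1.77%, 3.51%, 2.79%, 4.05%, 3.36%, 1.84% and 2.70% were higher and 1.54%, 4.31%, 3.03%, 1.49%, 0.487%, 0.300% and 4.42% lower. In tumor or biliary, hepatocyte, CAF and endothelial-like cells 3.36%, 3.35%, 3.52% and 3.30% were higher and 2.43%, 3.16%, 2.17% and 3.94% lower. The share of the set past 2-fold was thus not far from that of genes in general, and most differences described below were smaller than 2-fold. In cells in which Y-linked genes but not *Xist* were detected, 19 of 97 measured pairs were higher and 7 lower. The share over all genes was not computed for those cells. Dropping the filter on low values, which is among the 11 alternative settings, could not change a ratio. Of the 8 pairs past 2-fold, *Pvr* in monocyte-like cells alone stayed past it in 11 of 11 settings. The smallest log2 ratios of the others were 0.70 for *Pvr* in cDC2-like, 0.71 for *Lag3* in monocyte-like, 0.73 for *Havcr2* in CD4 T-like and 0.95 for *Tigit* in other T-like cells, -0.38 for *Ceacam1* in cDC1-like and -0.90 for *Vsir* in cDC2-like cells, the last under median-ratio scaling, and *Havcr2* in endothelial-like cells turned sign. Counting intervals of the ratio lay above 1 in 33 pairs, below 1 in 25 and spanned 1 in 64. The share of all genes with such intervals was not computed, so these counts and those by gene below have no background to be read against. The direction differed by gene: *Lag3* was above in 5 classes and below in 0, *Tigit* in 5 and 0, *Lgals9* in 10 and 0, *Pvr* in 6 and 1, *Ceacam1* in 0 and 5 and *Vsir* in 1 and 9. The median gene of a class was itself shifted by -0.26 (neutrophil-like) to 0.00 (CAF-like) on the log2 scale, so that downward values are best read against these shifts.

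**Figure D3:**
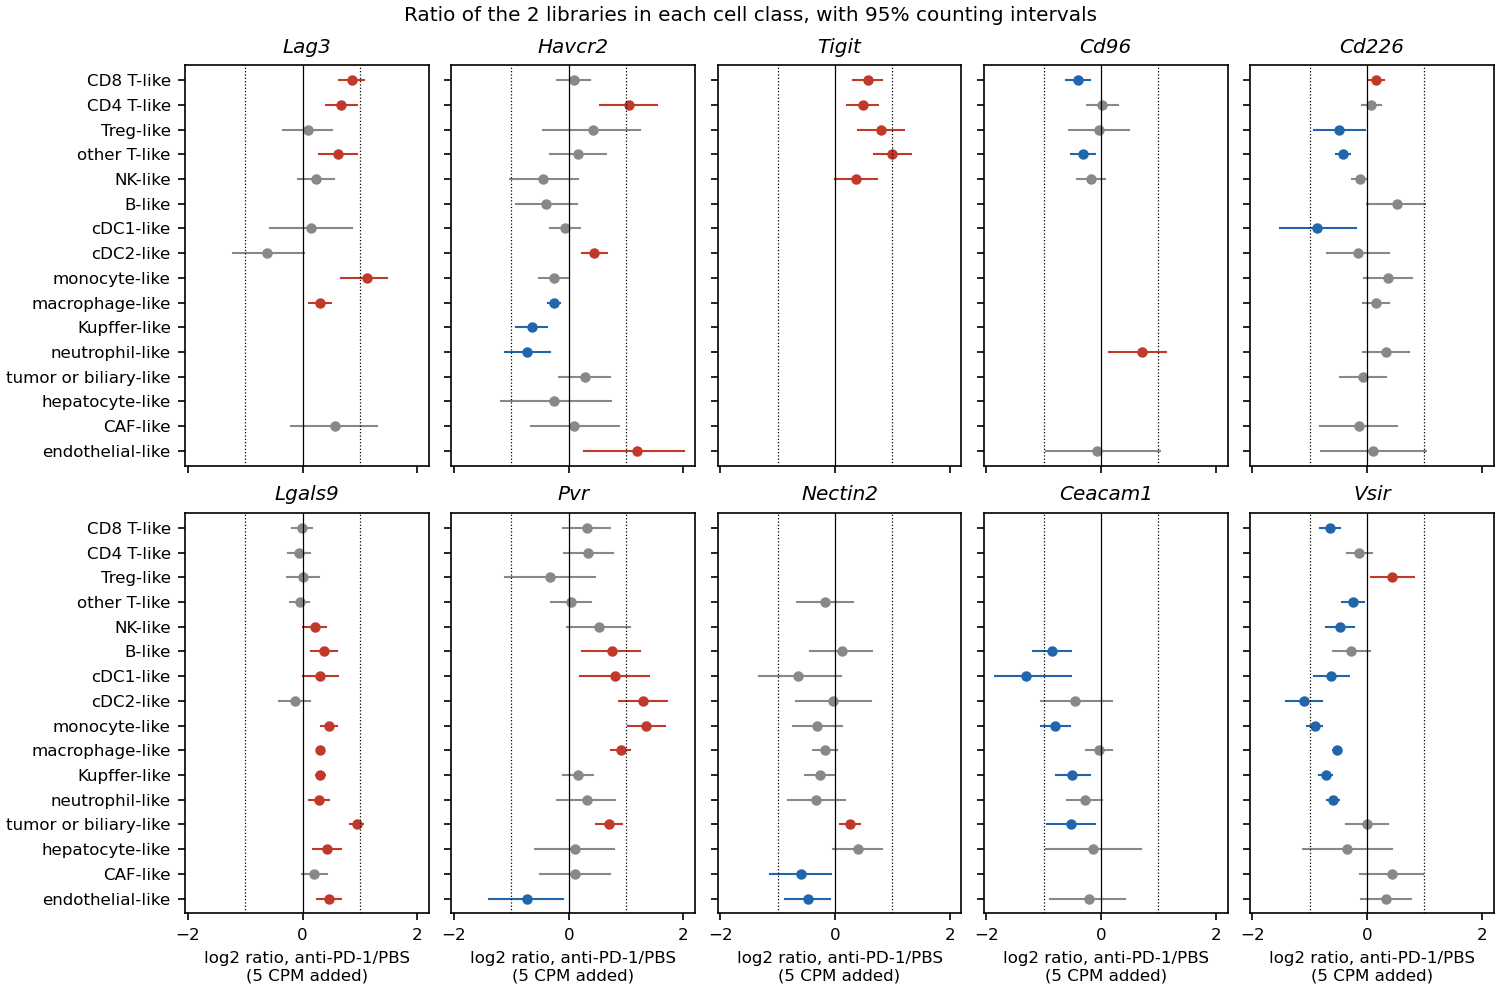
Points are log2 ratios of anti-PD-1 over PBS (5 CPM added) for each gene in each class that passed the level filter, and lines are 95% counting intervals; red intervals lie above 0, blue ones below 0 and gray ones span it, and dotted lines mark 2-fold. *Tigit* and *Lgals9* have no blue interval, *Ceacam1* has no red one, and *Vsir* has 9 blue intervals and 1 red.

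*Lag3* (ENSMUSG00000030124, chr6:124904361-124911705 on mm10, reverse strand) was highest in the T cell classes among the 16 classes with at least 100 cells per library. With PBS it was at 77.1 CPM in Treg-like, 66.0 in CD8 T-like, 59.5 in CD4 T-like and 56.0 in NK-like cells, and the intervals of neighbours in this order overlapped. With anti-PD-1 CD8 T-like cells led at 124 CPM, with an interval that did not overlap that of the next class, CD4 T-like cells at 98.0 CPM. The 758 UMIs with anti-PD-1 against 187 with PBS gave a 1.87-fold higher *Lag3* level in CD8 T-like cells (interval 1.59 to 2.21), a log2 ratio of 0.86 that stood at percentile 97.5 of all genes measured in that class. CD4 T-like cells (1.65-fold, 1.35 to 2.02) and other T-like cells, which had either none of the *Cd4*, *Cd8a*, *Cd8b1* and *Foxp3* UMIs or a combination that met no single gate, such as *Cd4* with *Cd8a* (24.4 and 40.1 CPM, 1.65-fold, 1.26 to 2.17), were also higher. Treg-like (1.07-fold, 0.782 to 1.47) and NK-like cells (1.19-fold, 0.939 to 1.52) were not resolved from 1. Within the CD8 T-like cells in which Y-linked genes were detected and *Xist* was not (65 and 689 cells), the log2 ratio of *Lag3* was 1.98, on 7 UMIs with PBS. The same subset gave 1.34 for *Havcr2* and 2.01 for *Tigit*, on 4 UMIs of each with PBS.

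In the other of these 16 classes *Lag3* was low. Macrophage-like cells had 13.6 and 18.0 CPM (1.32-fold, 1.11 to 1.57). Monocyte-like cells had 10 UMIs with PBS and 43 with anti-PD-1, 2.20 and 10.6 CPM, and were past 2-fold (4.84-fold, 2.40 to 10.8, 4.05% of all genes were higher and 1.49% lower in this class). The 8 T cell markers were all higher in the same monocyte-like cells with anti-PD-1, with a sum of 146 and 256 CPM against 6927 and 6967 CPM in CD8 T-like cells, and neutrophil-like cells showed the same (8 of 8 markers, 266 and 513 CPM, *Lag3* 1.88 and 7.68 CPM). T cell RNA outside T cells thus moved with this value. Markers of plasmacytoid dendritic cells (pDC) were higher in the monocyte-like cells too (5 of 5, sum 22.6 and 96.3 CPM). The pDC-like cells, given in the last section, had the highest *Lag3* level of any class. The part of either RNA in the monocyte-like value was not tested. In endothelial-like cells *Lag3* had 7 UMIs with PBS and 0 with anti-PD-1, which allows up to 5.84 CPM there.

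Of the ligands of LAG3, the MHC class II genes were those past 2-fold higher. In monocyte-like cells *H2-Ab1*, a class II chain, was at 1022 and 2479.5 CPM (2.43-fold, 2.34 to 2.51), and *Cd74*, the invariant chain, at 3487 and 9881 CPM (2.83-fold, 2.78 to 2.89). *H2-Aa*, *H2-Ab1*, *H2-Eb1* and *Cd74* were all past 2-fold higher in monocyte-like, Kupffer-like, endothelial-like and tumor or biliary-like cells, the last with *Cd74* at 1337 and 4584 CPM. In cDC2-like cells, which had the most class II of these classes, *H2-Ab1* was at 13659 and 11634 CPM, below 2-fold. *Clec4g*, a product of sinusoidal endothelium, was at 1516 and 1128 CPM in endothelial-like cells, and *Fgl1* was at 55.5 and 29.3 CPM in hepatocyte-like cells.

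*Havcr2* (ENSMUSG00000020399, chr11:46454935-46481255, forward strand) was a gene of dendritic cells and macrophages in these livers. It was at 153 and 145 CPM in cDC1-like cells (1.05-fold lower, 0.873 to 1.27), at 138 and 190.1 CPM in cDC2-like cells (1.38-fold, 1.18 to 1.60, but a log2 ratio of -0.22 on 58 and 255 UMIs in the cells with Y-linked UMIs and without *Xist*) and at 97.4 and 80.8 CPM in macrophage-like cells, where it was 1.21-fold lower (1.12 to 1.30). Kupffer-like cells (19.3 and 10.5 CPM, 1.84-fold lower, 1.43 to 2.36) and neutrophil-like cells (28.1 and 15.1 CPM, 1.87-fold lower, 1.34 to 2.58) were lower with anti-PD-1 too. In neutrophil-like cells the sums of monocyte markers (2309 and 1297 CPM, 2 of 6 higher) and macrophage markers (1773 and 1513 CPM, 1 of 8 higher) were lower as well, and their part was not tested. CD8 T-like cells had 43.1 and 45.9 CPM, a ratio of 1.07 whose interval (0.860 to 1.33) excludes the size of the difference seen for *Lag3* in the same cells. In CD4 T-like cells *Havcr2* was past 2-fold, from 7.80 to 21.6 CPM (19 and 68 UMIs, 2.78-fold, 1.65 to 4.89, 1.91% of all genes were higher in this class). The 8 macrophage markers summed to 684 and 834 CPM in these CD4 T-like cells, with 5 of 8 higher, and the cDC2 markers to 96.0 and 188 CPM (3 of 6 higher). The mature DC markers summed to 93.6 and 338 CPM (1 of 6 higher). The 1 higher was *Ccr7*, at 85.8 and 333 CPM, so the other mature DC markers were not higher. The part of other cells' RNA in this *Havcr2* value was not tested. The ratio of 3.61 in endothelial-like cells (1.36 to 9.14) came from 13 and 9 UMIs, and without the 5 cells with most *Havcr2* UMIs in each library it rested on 6 and 0 UMIs.

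*Lgals9* (ENSMUSG00000001123, chr11:78962974-78984946, reverse strand) was the most widely detected of the 10 genes, with a lowest level among the 16 classes of 88.9 CPM (B-like) with PBS and 94.5 CPM (cDC2-like) with anti-PD-1. Endothelial-like (319 and 442 CPM), macrophage-like (290.3 and 360.1 CPM) and Kupffer-like cells (249.7 and 310.1 CPM) were high in both libraries. The ratio was 1.24 in macrophage-like cells (1.19 to 1.29, 7138 and 4344 UMIs) and 1.24 in Kupffer-like cells (1.17 to 1.32). Its largest ratio was in tumor or biliary-like cells, where it went from 196 to 381 CPM (1.95-fold, 1.797 to 2.11, percentile 96.3 of all genes). No class was past 2-fold. CD8 T-like (131 and 130.2 CPM), CD4 T-like (163 and 156 CPM) and Treg-like cells (185 and 186 CPM) had intervals that spanned 1. In tumor or biliary-like cells 6 of 6 Kupffer markers were higher with anti-PD-1 (sum 101.6 and 489 CPM, against 20789 and 17678 CPM in Kupffer-like cells), as were 6 of 8 macrophage markers (880 and 1339 CPM, against 22973 and 22805 CPM in macrophage-like cells). The part of this RNA in the *Lgals9* level of tumor or biliary-like cells was not tested.

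Whether *Lgals9* followed interferon response within a class was looked at in cells thinned to 1000 UMIs each. Macrophage-like cells with a UMI of *Cxcl9* or *Cxcl10*, chemokines induced by IFN-γ, had 286 CPM of *Lgals9* against 272 CPM in those without with PBS, and 362 against 376 CPM with anti-PD-1. Both ratios spanned 1 (1.05, 0.802 to 1.36, and 0.964, 0.777 to 1.19). The cells with such a UMI numbered 227 with PBS and 345 with anti-PD-1, those without 2392 and 830. Tumor or biliary-like cells with a UMI of *Gbp2*, an interferon-induced GTPase, numbered 62 with anti-PD-1, and their *Lgals9* level of 452 CPM was not resolved from the 388 CPM of the rest (1.16-fold, 0.760 to 1.72). At 1000 UMIs a cell without a UMI of these genes can still express them. These splits therefore cannot decide whether *Lgals9* followed interferon response.

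*Ceacam1* (ENSMUSG00000074272, chr7:25461707-25477603, reverse strand) was low and lay in monocyte-like (68.1 and 37.1 CPM), B-like (50.5 and 25.5 CPM), neutrophil-like (47.4 and 37.97 CPM) and endothelial-like cells (43.6 and 37.0 CPM). It was lower with anti-PD-1 in monocyte-like cells by 1.83-fold (1.50 to 2.24) and in B-like cells by 1.98-fold (1.52 to 2.57). In cDC1-like cells it was past 2-fold lower on 21 and 4 UMIs (13.8 and 2.56 CPM, 5.39-fold lower, 1.82 to 21.6, 4.31% of all genes were lower in this class). There macrophage markers were lower (3654 and 2638 CPM, 0 of 8 higher) and monocyte markers had a higher sum (897 and 1163 CPM, 2 of 6 higher), and their part was not tested. Tumor or biliary-like cells had 15.8 and 9.48 CPM (1.67-fold lower, 1.10 to 2.60). This direction turned when the cells were thinned to 1000 UMIs (log2 ratio 0.22 on 19 and 15 UMIs). *Ceacam1* overlaps the antisense gene *4732471J01Rik*, which had 455 and 291 UMIs over all barcodes, and its closely related neighbour *Ceacam2* had 8 and 7; whether the counting used strand is not given in the sources used here.

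Of the other genes of the TIM-3 axis, *Hmgb1* was at 337 and 327 CPM in macrophage-like cells, and *Bag6*, an adaptor of the TIM-3 tail, at 67.4 and 65.3 CPM in CD8 T-like cells. *Timd4*, a phosphatidylserine receptor, was past 2-fold higher in 5 classes, from 10.2 to 68.5 CPM in macrophage-like cells. It is a Kupffer cell gene here, with 529 and 598 CPM in Kupffer-like cells, and 6 of 6 Kupffer markers were higher in macrophage-like cells of the anti-PD-1 library as well (sum 678 and 1833 CPM).

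*Tigit* (ENSMUSG00000071552, chr16:43648867-43664146, reverse strand) was measured in the 5 T and NK classes alone and was higher with anti-PD-1 in each. Treg-like cells had the highest level, 73.1 and 131 CPM (1.79-fold, 1.35 to 2.41). CD8 T-like cells had 50.8 and 77.9 CPM (144 and 478 UMIs, 1.53-fold, 1.27 to 1.86), CD4 T-like cells 60.7 and 86.9 CPM (1.43-fold, 1.17 to 1.76) and NK-like cells 39.0 and 51.9 CPM (1.33-fold, 1.007 to 1.78). Other T-like cells were past 2-fold at 23.5 and 52.2 CPM (2.22-fold, 1.71 to 2.90, 1.97% of all genes were higher in this class). In that class *Cd4* (29.7 and 57.9 CPM), *Cd8a* (17.4 and 39.8 CPM) and *Foxp3* (15.7 and 33.4 CPM) were also higher with anti-PD-1, so the makeup of the class differed between the libraries. On thinned cells the sign in CD4 T-like cells turned (log2 ratio -0.19 on 26 and 23 UMIs), and so did that in NK-like cells in which Y-linked genes but not *Xist* were detected (-0.34 on 24 and 115 UMIs).

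*Cd226* (ENSMUSG00000034028, chr18:89176967-89272229, forward strand) and *Cd96* (ENSMUSG00000022657, chr16:46035657-46120251, reverse strand) also encode receptors of CD155, and neither was higher with anti-PD-1 in each of the 5 T and NK classes. *Cd226* was highest in NK-like cells (390.4 and 357 CPM, 0.915-fold, 0.834 to 1.00), followed with PBS by other T-like cells (331 and 245 CPM, 1.35-fold lower, 1.24 to 1.47). In CD8 T-like cells it was at 225 and 252 CPM (1.12-fold, 1.02 to 1.23), a direction that turned in the cells with Y-linked UMIs and without *Xist* (log2 ratio -0.12 on 63 and 1019 UMIs), and in Treg-like cells at 85.1 and 59.4 CPM (1.43-fold lower, 1.03 to 2.00). *Cd96* was at 111 and 98.1 CPM in NK-like, 106 and 85.0 CPM in other T-like and 97.8 and 73.0 CPM in CD8 T-like cells, the last 1.34-fold lower (1.15 to 1.56). CD4 T-like cells had 75.5 and 76.7 CPM of *Cd96*.

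The division of UMIs among the 3 receptors shows the balance between them. In Treg-like cells *Tigit* made up 34.9% (28.5 to 41.8) of 209 UMIs with PBS and 54.6% (48.5 to 60.6) of 271 with anti-PD-1, while *Cd226* made up 40.7% and 24.7%. In CD8 T-like cells the *Tigit* share was 13.6% (11.6 to 15.8) and 19.3% (17.8 to 20.9), the *Cd96* share 26.2% and 18.1% and the *Cd226* share 60.2% and 62.6%. The *Tigit* share was 5.10% and 13.7% in other T-like, 7.21% and 10.2% in NK-like and 18.2% and 23.4% in CD4 T-like cells. *Cd226* was thus the leading transcript in 9 of these 10 class and library pairs, the exception being Treg-like cells of the anti-PD-1 library. These shares compare UMIs of different genes without a correction for transcript length, as a 3′ kit counts transcript ends.

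**Figure D4:**
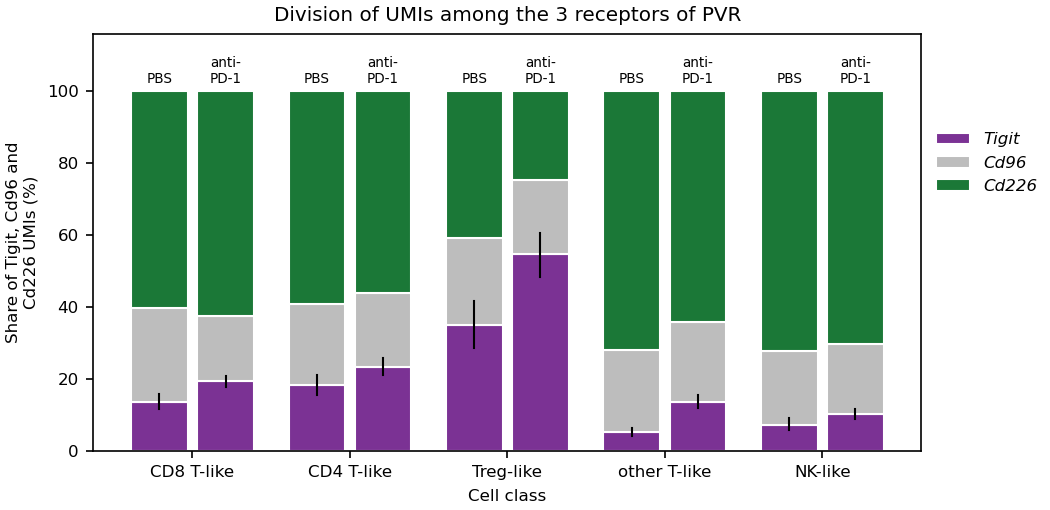
Stacked bars give the percentage of *Tigit*, *Cd96* and *Cd226* UMIs in T and NK-like classes (left PBS, right anti-PD-1); black lines are 95% binomial intervals of the *Tigit* share. The *Tigit* share is larger in the right bar of every pair, and in Treg-like cells it is 34.9% and 54.6%.

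*Pvr* (ENSMUSG00000040511, chr7:19903578-19921160, reverse strand), the shared ligand, was highest in endothelial-like (64.5 CPM) and tumor or biliary-like cells (47.2 CPM) with PBS. With anti-PD-1 tumor or biliary-like cells led these 16 classes at 80.3 CPM (304 and 254 UMIs, 1.70-fold, 1.43 to 2.02, but a log2 ratio of 0.45 with an interval of -0.05 to 0.94 on thinned cells), followed by cDC2-like (57.5 CPM) and monocyte-like cells (50.5 CPM). The latter 2 were past 2-fold: cDC2-like cells from 20.5 CPM (2.81-fold, 2.00 to 3.98, 2.79% of all genes were higher in this class) and monocyte-like cells from 16.7 CPM (3.02-fold, 2.31 to 3.99). Markers of other cells moved in these classes too. In cDC2-like cells the 6 mature DC markers summed to 67.3 and 161 CPM, with 2 of 6 higher, and the 6 cDC2 markers to 2946 and 2301 CPM. In monocyte-like cells mature DC markers summed to 14.9 and 43.6 CPM (5 of 6 higher). In both classes the rise of the mature DC sum lay mainly in *Ccr7*, at 8.55 and 99.6 CPM in cDC2-like and 4.39 and 33.7 CPM in monocyte-like cells. The 5 pDC markers summed to 22.6 and 96.3 CPM (5 of 5 higher) in monocyte-like cells. There the 6 monocyte markers summed to 10558 and 8523 CPM, and 4 of 4 cycling genes were past 2-fold higher. The part of these markers and genes in the *Pvr* values was not tested. Macrophage-like cells had 16.1 and 34.6 CPM (2.14-fold, 1.86 to 2.46) and cDC1-like cells 15.1 and 30.1 CPM (1.99-fold, 1.19 to 3.44). Kupffer-like cells were at 16.6 and 19.1 CPM (1.15-fold, 0.914 to 1.45) and endothelial-like cells were 1.74-fold lower (36.96 CPM, 1.08 to 2.97). The higher *Pvr* level was therefore seen in tumor or biliary-like, B-like, dendritic, monocyte-like and macrophage-like cells and not in hepatocyte-like (29.6 and 32.2 CPM), CAF-like (19.9 and 21.8 CPM) or endothelial-like cells.

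*Nectin2* (ENSMUSG00000062300, chr7:19716644-19750483, reverse strand), the second ligand, had a steeper order. It was at 161 and 115 CPM in endothelial-like, 107 and 130.2 CPM in tumor or biliary-like, 77.5 and 104 CPM in hepatocyte-like and 42.7 and 26.6 CPM in CAF-like cells, and at or under 17.8 CPM in the other 12 of the 16 classes. Tumor or biliary-like cells were 1.21-fold higher with anti-PD-1 (1.07 to 1.37), whereas endothelial-like (1.40-fold lower, 1.07 to 1.87) and CAF-like cells (1.60-fold lower, 1.05 to 2.53) were lower. In CAF-like cells the sign turned when cells with at least 200 genes and no upper limit were kept (log2 ratio 0.16). In cells in which Y-linked genes but not *Xist* were detected it turned in CAF-like (0.43 on 6 and 25 UMIs) and endothelial-like cells (0.47 on 19 and 43 UMIs). Unlike *Pvr*, *Nectin2* was not above 1 in monocyte-like (0.723-fold, 0.456 to 1.13) or macrophage-like cells (0.836-fold, 0.665 to 1.05). Antisense genes overlap exons of both ligands, *Gm20512* at *Nectin2* (86 and 45 UMIs over all barcodes against 6365 and 3206) and *Gm16251* at *Pvr* (13 and 13 against 3675 and 3388).

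Of the other genes of the TIGIT axis, *Pvrig*, a further receptor of CD112, was at 4.24 and 4.56 CPM in CD8 T-like and 11.0 and 13.6 CPM in NK-like cells, and *Nectin3* was at 111 and 67.0 CPM in tumor or biliary-like cells. *Crtam*, a receptor of activated cytotoxic cells that binds CADM1, was past 2-fold higher in CD8 T-like cells (17.6 and 60.5 CPM, 3.43-fold, 2.54 to 4.70). Over the 27 partners of the 3 axes as a list, 24 of 283 measured gene and class pairs were past 2-fold higher and 1 lower. Of all measured gene and class pairs, 2.76% were higher and 2.24% lower. The median log2 ratio of the list lay between -0.10 (cDC2-like) and 0.50 (hepatocyte-like). Of the 24, 16 were the 4 class II genes in the 4 classes named above.

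*Vsir* (ENSMUSG00000020101, chr10:60346851-60372684, forward strand) was the gene most often lower with anti-PD-1. With PBS its order was neutrophil-like (474 and 313 CPM, 1.52-fold lower, 1.41 to 1.63), monocyte-like (315 and 165 CPM, 1.91-fold lower, 1.74 to 2.10) and macrophage-like cells (255 and 175 CPM, 1.45-fold lower, 1.38 to 1.52), followed by Kupffer-like cells (180.1 and 107 CPM, 1.68-fold lower, 1.56 to 1.82). In cDC2-like cells it was past 2-fold lower (124 and 55.2 CPM, 2.24-fold lower, 1.78 to 2.84, 3.03% of all genes were lower in this class). Macrophage markers were lower in these cDC2-like cells too (2101 and 1479 CPM, 1 of 8 higher), and their part was not tested. CD8 T-like cells had 164 and 103 CPM (1.59-fold lower, 1.41 to 1.797). Macrophage markers were lower in the same cells, at a sum of 948 and 737 CPM (0 of 8 higher), as were monocyte markers at 925 and 697 CPM (1 of 6 higher). With PBS the monocyte markers summed to 232 CPM in CD4 T-like and 128 CPM in Treg-like cells. Whether those in CD8 T-like cells were myeloid RNA was not tested. The part of these markers in the *Vsir* value was not tested. Treg-like cells were the only class with an interval above 1, at 88.1 and 121 CPM (1.38-fold, 1.05 to 1.82). With anti-PD-1 they were followed by CD4 T-like (111 CPM) and Kupffer-like cells with overlapping intervals. On thinned cells the sign in Treg-like cells turned (log2 ratio -0.68 on 18 and 11 UMIs). It turned as well in those with Y-linked UMIs and without *Xist* (-0.10 on 9 and 81 UMIs). CAF-like (22.7 and 32.3 CPM) and endothelial-like cells (76.0 and 97.3 CPM) were higher too, with intervals that spanned 1. The lower level stood out against the rest of the class in Kupffer-like (percentile 1.04 of all genes), cDC2-like (1.98) and monocyte-like cells (2.17), and less so in neutrophil-like cells (19.8), where the median gene was itself at -0.26. Within the macrophage-like cells of the anti-PD-1 library, cells with a *Cxcl9* or *Cxcl10* UMI had less *Vsir* than those without (122 against 210 CPM, ratio 0.581, 0.404 to 0.817), and with PBS the ratio was 0.778 (0.568 to 1.04). The opposite-strand gene *Cdh23* overlaps exons of *Vsir*; *Cdh23* had 114 and 70 UMIs over all barcodes against 15082 and 10750.

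The share of cells in which a receptor was seen depends on depth, and CD8 T-like cells had a median of 2820 UMIs with PBS and 3976 with anti-PD-1. After each cell was thinned to 1000 UMIs, 6.81% (5.01 to 9.004) of 661 CD8 T-like cells with PBS and 9.90% (8.05 to 12.0) of 919 with anti-PD-1 had a *Lag3* UMI, a difference of 3.09 percentage points (0.287 to 5.79). The CD4, CD8 and Foxp3 calls were read anew from the thinned UMIs, so that they had the same depth in both libraries; cells that lost these UMIs passed to the other T-like class. Before thinning, over all 842 and 1213 cells, the shares were 14.5% and 25.0%. In neutrophil-like cells, which should lack *Lag3*, 0.0941% and 0.617% had one after thinning. *Tigit* was seen in 6.05% and 8.60% of thinned CD8 T-like cells (intervals 4.36 to 8.15 and 6.86 to 10.6), *Havcr2* in 3.03% and 3.48% and *Cd226* in 15.6% and 20.1%. *Havcr2* was seen in 2.73% and 1.197% of neutrophil-like cells. These had 28.1 and 15.1 CPM of *Havcr2* and are no blank for it, so they cannot show whether its share in CD8 T-like cells was above background. In the thinned other T-like class, which with these added cells held 1838 and 1810 cells, *Tigit* was seen in 2.72% (2.03 to 3.57) and 5.69% (4.67 to 6.86).

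**Figure D5:**
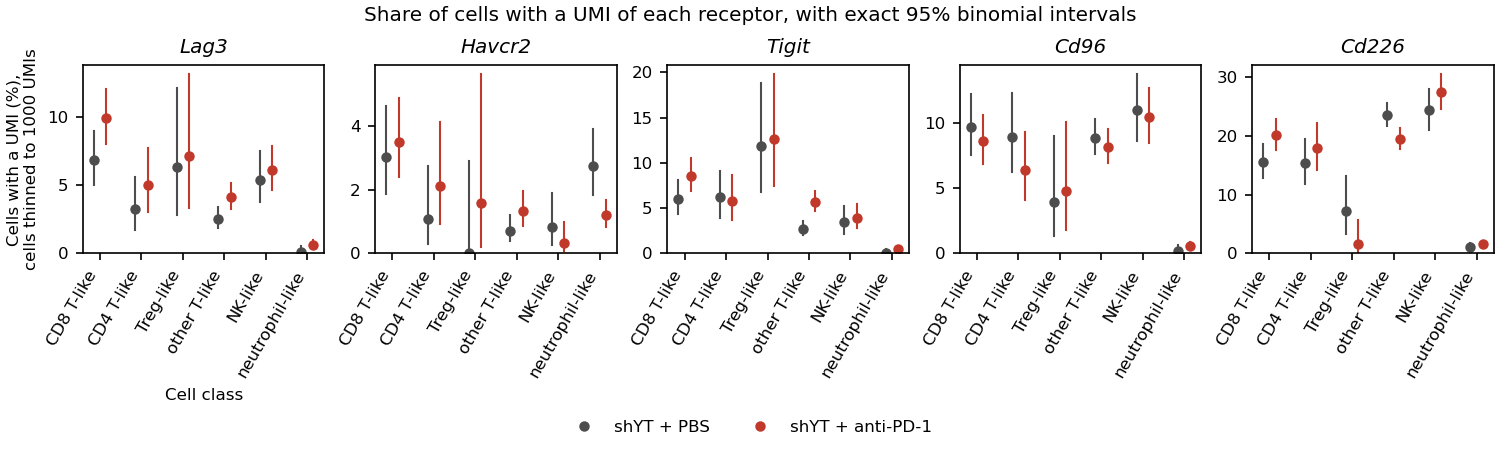
Points are the percentage of cells with a UMI of each receptor after thinning to 1000 UMIs, by class and library, and lines are exact 95% binomial intervals. The neutrophil-like column shows the level in a class that should lack *Lag3*, *Tigit*, *Cd96* and *Cd226*; the intervals of *Tigit* in other T-like cells do not overlap between the libraries.

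Of the thinned CD8 T-like cells, 2.12% (1.16 to 3.53) with PBS and 2.50% (1.59 to 3.73) with anti-PD-1 had UMIs of at least 2 of *Lag3*, *Havcr2* and *Tigit*, and 0 had all 3. The product of the single shares would give 0.776% and 1.44%. Cells with a UMI of *Pdcd1* (PD-1) carried more *Lag3* than those without, 169 against 64.4 CPM with PBS (2.62-fold, 1.25 to 5.13) and 220.1 against 100.0 CPM with anti-PD-1 (2.20-fold, 1.43 to 3.33). For *Tigit* this ratio was 1.797 (0.723 to 3.92) and 2.12 (1.29 to 3.38) and for *Havcr2* 2.93 (0.947 to 7.80) and 2.82 (1.31 to 5.86). *Cd96* did not share this, with ratios of 0.791 (0.280 to 1.82) and 0.683 (0.327 to 1.29).

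In NK-like cells a UMI of *Eomes*, a T-box factor of conventional NK cells, went with less *Cd226*: 107 against 337 CPM with PBS (0.318, 0.115 to 0.705) and 77.8 against 406 CPM with anti-PD-1 (0.192, 0.0764 to 0.399).

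Of 10 further checkpoint and activation genes, 4 were past 2-fold higher in CD8 T-like cells and 0 lower, against 1.79% and 1.42% of all genes in this class, and none of the 10 genes of the set passed that limit there. This was not limited to CD8 T-like cells. Over the 16 classes 28 of 108 measured pairs of these genes were past 2-fold higher and 1 lower, against 2.76% and 2.24% of all measured pairs. Among the 28 was *Ctla4* in neutrophil-like cells (9.38 and 36.3 CPM), where T cell markers were also higher. In CD8 T-like cells *Ctla4* was at 110 and 351 CPM (2.84 to 3.62-fold higher), *Tnfrsf9* (4-1BB) at 46.2 and 134 CPM, *Tnfrsf4* (OX40) at 8.12 and 74.0 CPM and *Icos* at 78.0 and 178 CPM. *Pdcd1* itself was at 112 and 208 CPM (1.86-fold, 1.65 to 2.11). In CD4 T-like (0.798-fold, 0.708 to 0.900) and Treg-like cells (0.747-fold, 0.611 to 0.913) *Pdcd1* was lower with anti-PD-1. *Cd160* was higher in CD8 T-like cells as well, at 117.5 and 180.2 CPM (1.53-fold, 1.36 to 1.74). *Tox*, which is associated with exhaustion, was at 181 and 186 CPM there, with an interval that spanned 1 (0.923 to 1.14). *Entpd1*, also associated with exhaustion, was lower in these cells (64.2 and 46.4 CPM, 0.723-fold, 0.598 to 0.876). So were *Eomes* (99.5 and 62.1 CPM, 0.624-fold, 0.533 to 0.730) and *Cd244a* (0.574-fold, 0.448 to 0.737), all short of 2-fold.

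The genes whose levels ran most like each member were sought over 32 class and library pairs among 7953 genes with at least 50 CPM in a pair, as a description without a test. The marker genes of the gates and gene symbols that occurred more than once were left out of this search. *Lag3* ran most like *Tigit* (Pearson r = 0.924 on log2 values), and *Tigit* most like *Sh2d1a* (SAP, 0.972) and *Cd27* (0.969). *Cd226* ran most like *Cd96* (0.971), and *Nectin2* most like *Ctnnb1* (0.969). *Vsir* ran most like *Rhog* (0.894), whereas *Pvr* had no close match (*Mid1*, 0.757). *Lgals9* was not close to any other member, the nearest being *Nectin2* (0.637), and *Havcr2* and *Lag3* had r = -0.00. Points of 1 library share its depth and preparation.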

How the data were processed

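Livers bearing CCA were dissociated and, after red cell lysis and removal of debris and dead cells, processed with the Singleron GEXSCOPE V2 kit, 1 library per group. Per the labels, reads were assigned to mm10, and the submitters' processing notes name Seurat 4.3; the deposited values used here are UMI counts per gene and barcode, not normalized by the authors. Cells with 500 to 5000 genes and at most 10% mitochondrial UMIs were kept. Each was scored against 18 marker panels by a Poisson likelihood ratio, needing at least 2 panel genes and 1.5 times the expected share; cells whose second lineage scored at least 0.2 of the first were left out as possible doublets. No doublet caller was run. The limits 1.5 and 0.2 were set after class sizes and member values had been seen, and the members and gene lists were chosen with earlier results of these data known. UMIs were summed per class and library and given as CPM with exact Poisson intervals, and ratios with exact conditional binomial intervals. Log2 ratios had 5 CPM added. A gene was measured at a mean of 5 CPM and 20 UMIs, and a level of 0 allows 3 UMIs. With 1 library per group no p-value was computed. All 10 genes were named in every class with at least 100 cells per library; other genes were named from lists, or as the 3 most alike in level. Cells were thinned to 1000 UMIs for shares. Of the gene identifiers, 32522 of 32589 matched GENCODE vM21. Python 3.11.15, numpy 2.4.6, scipy 1.17.1, pandas 2.3.3 and matplotlib 3.10.9 were used, and the computation was tested on simulated data. One split of the CD8 T-like cells is not reported here.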

Additional observations from a re-analysis of the deposited data

How the results depend on the processing

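Of the 11 alternatives, dropping the filter on low values could not change a log2 ratio, so its 122 ratios stayed the same. Over all 11, 1188 of 1342 recomputed log2 ratios stayed within their counting interval, 142 moved and 12 turned sign. Of the latter 2 counts, 63 and 6 were in cells in which Y-linked genes but not *Xist* were detected. A turn of sign was counted only where the main interval did not span 0. The count of pairs past 2-fold higher, 6, became 19 in those cells, and the count lower, 2, became 7, of 97 measured pairs there. The count lower became 1 under median-ratio scaling (*Vsir* in cDC2-like cells at -0.90), with at least 3 marker genes, and with markers at 2 times their expected share, the last added after seeing the data, and 4 without the 5 top cells. Median-ratio scaling moved *Lgals9* in macrophage-like cells from 0.31 to 0.48 and *Vsir* from -0.52 to -0.35. The cells with Y-linked UMIs and without *Xist* gave -1.53 for *Ceacam1* in tumor or biliary-like cells, 1.29 for *Pvr* in macrophage-like cells, 1.34, 1.98 and 2.01 for *Havcr2*, *Lag3* and *Tigit* in CD8 T-like cells and 7.84 percentage points for the share with *Lag3*. They turned *Cd226* in CD8 T-like (-0.12), *Havcr2* in cDC2-like (-0.22), *Nectin2* in CAF-like (0.43) and endothelial-like (0.47), *Tigit* in NK-like (-0.34) and *Vsir* in Treg-like cells (-0.10). Thinning gave 0.44 for *Lgals9* and 1.205 for *Pvr* in macrophage-like and 0.45 for *Pvr* in tumor or biliary-like cells, with an interval that spans 0, and turned *Ceacam1* in tumor or biliary-like (0.22), *Lgals9* in hepatocyte-like (-0.22), *Tigit* in CD4 T-like (-0.19) and *Vsir* in Treg-like cells (-0.68). Without thinning the share with *Lag3* differed by 10.5 points. *Nectin2* in CAF-like cells turned with at least 200 genes and no upper limit (0.16), and *Havcr2* in endothelial-like cells without the 5 top cells (-0.54). The causes were not tested. No paired analysis was possible because each group was 1 library. Depth limits low values: only 122 of 160 pairs reached the level for a ratio.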

Other observations

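Among 5 classes with under 100 cells in a library, which entered none of the counts above, pDC-like cells (76 with PBS, 53 with anti-PD-1) had the highest *Lag3* level of any class, 218 and 194 CPM on 87 and 66 UMIs (0.893-fold, 0.638 to 1.24); they were singled out after their values were seen. Mature DC-like cells (93 and 83) had 60.8 and 87.5 CPM of *Pvr* and 50.4 and 96.4 CPM of *Lgals9*. Mesothelial-like cells (32 and 16) had 94.7 and 192 CPM of *Nectin2*.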
